A study of Mus musculus with 3 samples.

Results

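The genes of catecholamine synthesis and transport followed here in mouse neuroblastoma were chosen by name. They were Th, Ddc, Dbh, Pnmt, Gch1, Cyb561, Slc18a1, Slc18a2, Slc6a2 and Maoa, 10 of the 31053 genes in the raw tables. All tumors came from TH-MYCN mice, which carry human MYCN behind the rat tyrosine hydroxylase promoter and were heterozygous for the transgene. The 3 tumors form 1 group with no untreated or transgene-free control. Tumor 1 was taken at 62 days of age, tumor 2 at 79 days and tumor 3 at 63 days, and each was dissociated whole and profiled once by droplet 3′ single-cell RNA-seq. The promoter that drives the transgene belongs to a gene of the same pathway, so MYCN was placed in cells that already make catecholamines, and every tumor carries that feature.

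Catecholamines are made from tyrosine in a fixed chain of enzymes. Tyrosine hydroxylase makes dopa with tetrahydrobiopterin as cofactor, aromatic amino acid decarboxylase turns it into dopamine, dopamine beta-hydroxylase turns that into noradrenaline inside secretory vesicles, and phenylethanolamine N-methyltransferase turns noradrenaline into adrenaline. Vesicular monoamine transporters load the vesicles, the noradrenaline transporter takes the amine back up at the cell surface, and monoamine oxidase breaks it down at the mitochondrial outer membrane. Sympathetic neurons and adrenal chromaffin cells, the lineage from which neuroblastoma arises, depend on this chain, and breakdown products of catecholamines in urine are a diagnostic sign of the human disease.

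Proximal promoters are shown for 3 members, because Th opens the pathway and because Dbh and Slc18a2 were the members that passed a blocked test between barcodes that the authors kept and those they removed. In capitals is the cyclic AMP response element TGACGTCA, a palindrome bound by CREB family factors. Sequences were read 5′ to 3′ on the gene's strand from the RefSeq promoter windows of GRCm38.p6, at chr7:142899996-142900245 on the minus strand for Th, chr19:59260628-59260881 on the plus strand for Slc18a2 and chr2:27165257-27165506 on the plus strand for Dbh.
Th: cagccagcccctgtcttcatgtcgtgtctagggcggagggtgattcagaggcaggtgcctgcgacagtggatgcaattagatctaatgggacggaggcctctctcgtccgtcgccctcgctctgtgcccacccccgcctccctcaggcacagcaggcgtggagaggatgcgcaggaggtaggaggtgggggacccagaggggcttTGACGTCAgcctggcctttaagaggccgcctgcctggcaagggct
Slc18a2: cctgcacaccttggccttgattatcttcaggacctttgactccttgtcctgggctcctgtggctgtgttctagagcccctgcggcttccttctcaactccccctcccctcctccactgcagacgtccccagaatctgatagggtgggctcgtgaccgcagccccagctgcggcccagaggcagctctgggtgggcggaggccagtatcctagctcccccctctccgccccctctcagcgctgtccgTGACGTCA
Dbh: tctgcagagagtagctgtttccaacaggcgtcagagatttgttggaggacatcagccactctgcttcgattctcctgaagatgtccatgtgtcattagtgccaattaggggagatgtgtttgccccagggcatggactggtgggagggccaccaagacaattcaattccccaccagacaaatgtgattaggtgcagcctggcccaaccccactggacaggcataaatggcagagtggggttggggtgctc
The element lay 45 to 38 bases before the annotated start of Th. In Slc18a2 it began 4 bases before the start and ran into the first exon. No match of the cyclic AMP response element, of the AP-1 site TGACTCA or of the homeodomain core TAATTA was found in the window of Dbh. The 3 motifs were searched on both strands in windows of 300 bases, and they do not overlap one another. The cyclic AMP response element was present in 588 of 32851 promoter windows (1.79%), and in 2 of the 7 windows of the 6 members with an entry, those of Th and Slc18a2. AP-1 was present in 1709 windows (5.20%) and the homeodomain core in 1738 (5.29%), none of them a member's. A match is a description of the letters in these windows and not a measured site.

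The libraries held 3257, 4327 and 6038 barcodes and 17319241, 21829496 and 20041044 unique molecular identifiers (UMIs, which count single captured molecules). The authors' filtered tables kept 1914, 1221 and 2515 of these barcodes, and the others are called removed here. Between 1 and 8 barcodes were shared by a pair of libraries. Barcodes were grouped by expression and named from fixed markers, with the 10 genes left out of the grouping. Tumor-like cells, named from noradrenergic and neuronal markers such as Hand2 and Gata3, numbered 324, 723 and 2012 among the kept cells and 367, 3067 and 3417 among the removed barcodes. Removed tumor-like barcodes had a median of 29.4%, 35.1% and 37.9% of their UMIs from mitochondrial genes, against 0.24%, 2.0% and 2.1% in kept ones. Levels are given as CPM, the UMIs of a gene over all non-mitochondrial UMIs on the usual CPM scale, with exact 95% Poisson intervals that cover counting error only.

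The 10 genes together had 20345 UMIs, of which 76.7% lay in removed barcodes, which held 57.2% of all non-mitochondrial UMIs. The share in removed barcodes was 23.8% in tumor 1, 88.2% in tumor 2 and 70.3% in tumor 3, beside 25.4%, 82.9% and 65.8% of all non-mitochondrial UMIs. Dbh had 66.7% (8 of 12 UMIs), 94.6% and 82.8% of its UMIs in removed barcodes of tumors 1, 2 and 3. Slc18a2 had 42.2%, 95% and 84.1%, and both lay above the share of all UMIs in each tumor. So did Cyb561 (40.5%, 93.2% and 76.2%), Th (46.4%, 84.6% and 68.5%), Ddc (27.8%, 86.3% and 70.0%) and Maoa (37.0%, 83.8% and 66.1%). Gch1 had less than that share in removed barcodes of each tumor (11.6%, 79.3% and 63.4%). Slc18a1 had 0 of its 5 UMIs there in tumor 1, and 98.2% and 84.4% in tumors 2 and 3. Because a tumor sum mixes cells of several types, fewer tumor cells and less RNA per cell cannot be told apart in these whole-library shares.

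Among the kept cells, Th, the rate-limiting enzyme of the chain, was at 52.3 CPM in tumor-like cells of tumor 1 (interval 35.6 to 74.3), 134 CPM in tumor 2 and 103 CPM in tumor 3. The pooled other named cells of the same tumors had 0.97, 58.9 and 46.7 CPM. Tumor-like cells were higher in each of the 3 tumors, by 53.8-fold in tumor 1 (26.3 to 119), 2.28-fold in tumor 2 (1.69 to 3.11) and 2.20-fold in tumor 3 (1.67 to 2.95). Ddc, the decarboxylase, followed the same pattern, with 250, 182 and 183 CPM in tumor-like cells and 3.98, 91.8 and 95.8 CPM in the other cells. Its within-tumor ratio was 62.8 in tumor 1 (44.7 to 89.8), 1.98 in tumor 2 and 1.91 in tumor 3. Tumor 1 therefore had the sharpest boundary between tumor-like and other cells for both genes, although its Th level in tumor-like cells was the lowest of the 3.

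The summed level of the 13 tumor markers moved in the same way. It was 48.9 times higher in tumor-like than in other cells in tumor 1, 2.5 times in tumor 2 and 2.18 times in tumor 3. In tumors 2 and 3 tumor markers were thus counted in barcodes of other classes as Th and Ddc were, and the part of free RNA in the levels of the members was not tested.

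Dbh, which makes noradrenaline, was at 5.07, 29.7 and 16.6 CPM in kept tumor-like cells, from 3, 41 and 61 UMIs. The other cells had 0.09, 17.0 and 6.33 CPM, so that the intervals of the ratio excluded 1 in tumors 1 and 3 but not in tumor 2 (1.75, 0.97 to 3.29). Pnmt, the last step to adrenaline, was low throughout, at 6.75, 11.6 and 9.82 CPM from 4, 16 and 36 UMIs, and in tumors 2 and 3 its ratio to other cells had intervals that included 1.

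Gch1, the first enzyme of tetrahydrobiopterin synthesis, did not share the boundary seen for Th. It was at 57.4, 104 and 130 CPM in kept tumor-like cells and at 48.6, 77.9 and 91.8 CPM in the other cells, a ratio of 1.18 (0.81 to 1.67) in tumor 1, 1.33 (1.0 to 1.78) in tumor 2 and 1.42 (1.16 to 1.76) in tumor 3. In tumor 1, where Th and Ddc were nearly absent from other cells, Gch1 was not. Cyb561, a cytochrome that passes electrons into secretory vesicles for Dbh, was at 55.7, 56.6 and 45.8 CPM in tumor-like cells and 3.89, 36.9 and 17.4 CPM in the others. Its tumor-like level varied little between tumors, with a mean of 52.7 ± 6.0 CPM (SD, n = 3).

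Slc18a2, the vesicular transporter of neurons, was at 15.2, 28.3 and 20.5 CPM in kept tumor-like cells and at 0.88, 8.98 and 7.12 CPM in the others, and the interval of the ratio lay above 1 in all 3 tumors. Slc18a1, the transporter of endocrine cells, had only 2, 1 and 4 UMIs in kept tumor-like cells. Slc6a2, the noradrenaline transporter, had 0, 2 and 3 UMIs there, and the 0 in tumor 1 allows a level of up to 5.07 CPM. Counts this low give wide ratios to the other cells, as for Slc18a1 in tumor 1 (12.7, 1.06 to 111, from 2 and 3 UMIs). Maoa, the breakdown enzyme, was at 47.3, 53.7 and 46.1 CPM in tumor-like cells and 4.15, 26.0 and 16.6 CPM in other cells, a ratio of 11.4 (6.86 to 18.6), 2.07 (1.31 to 3.37) and 2.77 (1.76 to 4.60).

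**Figure D1:**
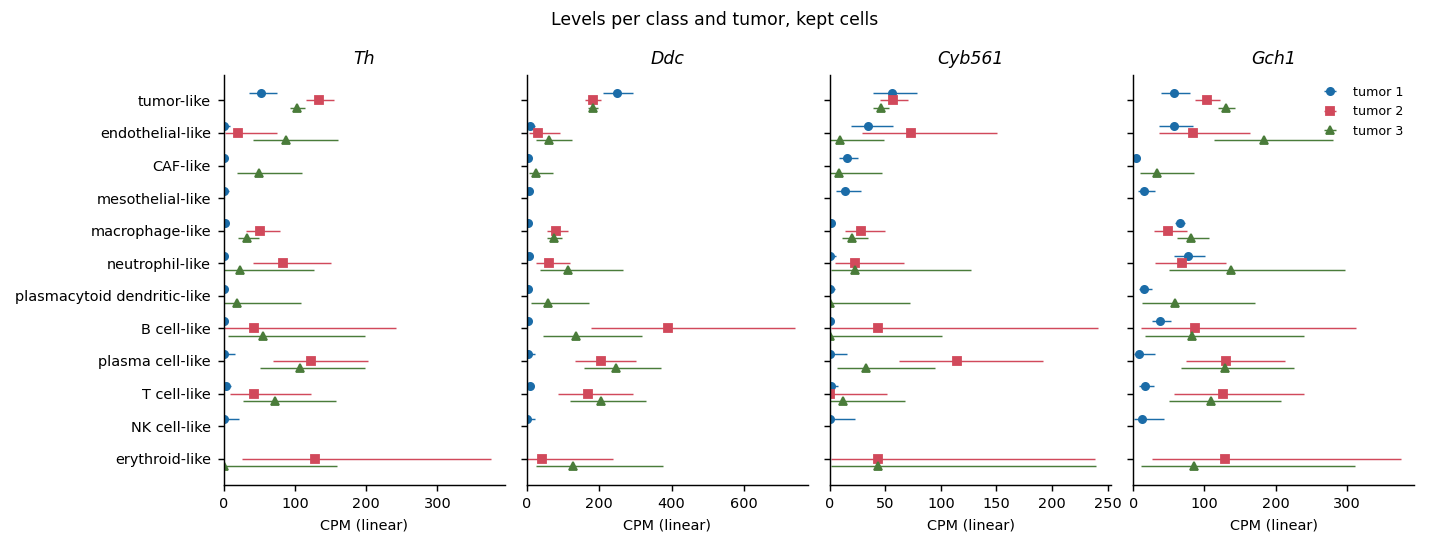
Level of Th, Ddc, Cyb561 and Gch1 in kept cells, in CPM on linear axes, for each named class and tumor, with exact 95% Poisson intervals as bars. Th in tumor-like cells lies at 52.3, 134 and 103 CPM in tumors 1, 2 and 3, and in tumor 1 the other classes lie close to 0, while Gch1 is spread over many classes.

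Ranked by the mean over tumors among the 12 named classes, tumor-like cells came first for Th (96.5 ± 41.3 CPM, SD, n = 3), Ddc (205 ± 38.8), Maoa (49.0 ± 4.1), Slc18a2 (21.3 ± 6.6), Slc18a1 and Cyb561. Plasma cell-like cells came next for Th (76.8 ± 66.9 CPM), Slc18a2 (20.9 ± 12.1 CPM) and Cyb561 (49.0 ± 59.1 CPM), and B cell-like cells for Ddc (176 ± 197 CPM), and none of these pairs differed beyond their spread. This spread is over tumors and does not pair the classes of a mouse. The B cell-like mean of Ddc rested on 16 UMIs in 245 cells. It ran from 2.19 to 390 CPM over the tumors, and all these cells pooled had 16.4 CPM. Dbh had its highest mean in plasma cell-like cells (29.0 ± 33.4 CPM) ahead of tumor-like cells (17.1 ± 12.3 CPM), again within the spread. Gch1 was highest in endothelial-like cells (108 ± 66.8 CPM), followed by erythroid-like (107 ± 30.1, n = 2), tumor-like (97.2 ± 36.9) and neutrophil-like cells (94.1 ± 37.1), which did not differ beyond their spread.

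Shares of cells with at least 1 UMI were compared after every cell was thinned to 500 UMIs, which left out 3 of the tumor-like cells of tumor 1. Any of the 10 genes was seen in 16.8%, 26.7% and 23.2% of kept tumor-like cells, and without thinning in 38.6%, 63.3% and 60.1%. Th was seen in 2.18%, 5.12% and 4.17% of them. Macrophage-like cells, which are no classical source of catecholamines, had Th in 0 of 640 thinned cells of tumor 1, which allows up to 0.469% of cells with a UMI at that depth, and in 3.54% and 3.14% of cells of tumors 2 and 3. Without thinning the shares were 1.24%, 16.8% and 11%. Ddc was in 10.6%, 9.54% and 9.34% of tumor-like and in 0%, 7.96% and 4.19% of macrophage-like cells. In tumors 2 and 3 UMIs of Th and Ddc were thus also counted in macrophage-like barcodes, at lower shares than in tumor-like cells. The part of free RNA in these counts was not tested. Macrophage-like cells had a median depth of 8132, 2062 and 2610 UMIs against 979.5, 1507 and 1740 in tumor-like cells. Dbh and Slc18a2 were in 0 of 944 thinned macrophage-like cells of the 3 tumors, which allows up to 0.318% of cells with a UMI at that depth, and in 0.31% to 1.66% of tumor-like cells. Without thinning, 7 and 9 of 947 macrophage-like cells had a UMI of Dbh and of Slc18a2 (0.739% and 0.950%).

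The difference between tumor-like cells and the other classes was then tested on counts summed per tumor and class, with edgeR's quasi-likelihood test and Benjamini-Hochberg adjustment over 8146 genes. Only Th, Ddc, Dbh, Gch1 and Cyb561 passed the filter on low counts. With class as the only term, 0 of these 5 members passed an adjusted p of 0.05, beside 0.687% of all genes tested in either direction and 0.466% as higher. The log2 difference by edgeR was 3.12 for Th (SE 1.07, adjusted p = 0.0990), 2.75 for Ddc (SE 0.82, adjusted p = 0.0692), 3.23 for Dbh (SE 1.07, adjusted p = 0.0958) and 2.72 for Cyb561 (SE 0.77, adjusted p = 0.0642). These differences are taken from the unweighted mean of the log levels of the other classes, so classes with few or no counts enlarge them. As plain means, scaled levels were 79.1 against 29.4 CPM for Th, 167 against 58.7 for Ddc, 14.1 against 7.15 for Dbh and 43.0 against 17.8 for Cyb561. An unadjusted p under 0.05 was reached by 1720 genes, and DESeq2 called 1669 genes and none of the members.

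All classes of a tumor come from 1 mouse, and with the tumor as a block 3 members rose in tumor-like cells, where 13.4% of all genes passed in either direction and 10.7% were higher. They were Ddc (log2 difference 3.26, SE 0.53, edgeR adjusted p = 0.000207), Th (2.96, SE 0.63, adjusted p = 0.00216) and Cyb561 (2.59, SE 0.64, adjusted p = 0.00731). Dbh (2.24, SE 0.79, adjusted p = 0.0629) and Gch1 (0.61, SE 0.37, adjusted p = 0.346) did not pass. The median of the 5 members was 2.59, beside 0.13 over all genes. Th, Ddc and Cyb561 passed the blocked fit without each tumor in turn, but without tumor 1 their log2 differences fell to 1.05, 0.99 and 1.76. Without the block, the calls over all genes split into 38 higher and 18 lower by edgeR and into 123 higher and 1546 lower by DESeq2, whose median over all genes was -0.53 against 0.03. With the block edgeR called 868 higher and 221 lower. With mitochondrial genes counted in the totals and no block the median was 0.49, 2007 genes were higher and 89 lower, and all 5 members passed.

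Of the related genes in 4 fixed lists, few passed in this comparison. With the tumor as a block, beside 13.4% of all genes, 1 of 6 tested genes of tetrahydrobiopterin metabolism passed, Pts, the second enzyme of its synthesis, which was lower in tumor-like cells (log2 difference -1.46). Of 2 tested genes of other amine transport, Slc29a4, a low-affinity plasma membrane monoamine transporter, was higher (2.79). None of the 6 tested breakdown genes and not the 1 tested receptor gene passed. Without the block no gene of these lists passed.

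Genes whose level followed a member over the 29 sums of class and tumor were sought among 13157 genes, as a description. Th was most like Pcsk1n, which encodes an inhibitor of a prohormone convertase (r = 0.96), then Rundc3a and Bex2. Ddc was most like Isl1, a transcription factor of the sympathetic lineage (r = 0.96), then Gm2694 and Cenpv. Cyb561 was most like Akt1s1 (r = 0.92), then Ift81. Isl1 is itself 1 of the tumor markers that named the classes, and sums of 1 tumor share a library.

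In the other classes, Gch1 was the 1 member that passed without the block. It was higher in neutrophil-like cells than in the remaining classes (log2 difference 1.63, SE 0.48, edgeR adjusted p = 0.0146), where 18.7% of all genes passed as higher, 19.2% in either direction, and the median over all genes was 0.36. With the block the difference was 1.78 (adjusted p = 0.000743), beside 22.5% of all genes higher and 23.5% in either direction. Its unscaled levels in neutrophil-like cells were 77.0, 68.6 and 137 CPM from 54, 9 and 6 UMIs. Their mean lay below those of endothelial-like, erythroid-like and tumor-like cells. With the scaling of the fit the mean was 136.6 CPM, against 59.9 CPM in the remaining classes, and the part of scaling in the call was not tested. The call rested on tumor 1, since without it the log2 difference was 0.26 (adjusted p = 0.959). Of the fixed lists, Pts (2.19) and Aldh2, an aldehyde dehydrogenase (2.74), were also higher in neutrophil-like cells, and Akr1b3, an aldose reductase, was lower (-1.31).

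With the tumor as a block, 2 more differences passed. Cyb561 was higher in endothelial-like cells (log2 difference 2.27, SE 0.76, edgeR adjusted p = 0.0405), where 15.0% of all genes were higher, at 34.2, 72.9 and 8.74 CPM from 15, 7 and 1 UMIs. Without tumor 1 its difference was 1.4 (adjusted p = 0.385). Gch1 was lower in cells like cancer-associated fibroblasts (CAF-like, log2 difference -2.38, SE 0.71, adjusted p = 0.0163), where 16.3% of all genes passed in either direction. It had 3 and 4 UMIs in such cells of tumors 1 and 3, or 3.47 and 33.6 CPM, and tumor 2 had under 10 such cells. Without tumor 1 its difference was -1.56 (adjusted p = 0.157).

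Removed barcodes gave a different picture of the pathway. In tumor-like removed barcodes, Dbh was at 12, 89.3 and 37.2 CPM, and in kept tumor-like cells at 5.07, 29.7 and 16.6 CPM. It was higher among removed barcodes beyond counting error in tumor 2, by 3.0-fold (2.20 to 4.21), and in tumor 3, by 2.24-fold (1.70 to 2.99). In tumor 1 the ratio was 2.38 from 5 and 3 UMIs, with an interval that included 1 (0.46 to 15.3). Slc18a2, which loads the vesicles where Dbh acts, was at 28.9, 80.9 and 48.8 CPM in removed and 15.2, 28.3 and 20.5 CPM in kept tumor-like barcodes. Its ratios were 1.90 (0.74 to 5.11), 2.86 (2.08 to 4.05) and 2.39 (1.86 to 3.09). The ranges of removed and kept tumors overlapped for Dbh but not for Slc18a2. For Slc18a2 they were parted only by 28.9 CPM (removed, tumor 1, from 12 UMIs) and 28.3 CPM (kept, tumor 2).

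The first enzymes of the chain did not move this way. Th was at 67.4, 116 and 105 CPM in removed and at 52.3, 134 and 103 CPM in kept tumor-like barcodes, with ratios of 1.29, 0.86 and 1.02 whose intervals all included 1. Ddc was at 120, 197 and 202 CPM in removed barcodes, a ratio of 0.48 (0.34 to 0.67) in tumor 1 1.08 (0.95 to 1.24) in tumor 2 and 1.10 (1.01 to 1.20) in tumor 3. Cyb561, at 45.7, 137 and 69.0 CPM, was higher among removed barcodes in tumors 2 and 3 (2.41, 1.92 to 3.07, and 1.5, 1.27 to 1.80) and not in tumor 1 (0.82, 0.44 to 1.49). Gch1 was at 60.2, 77.1 and 111 CPM, a ratio of 1.05 (0.60 to 1.81) in tumor 1, 0.74 (0.62 to 0.89) in tumor 2 and 0.85 (0.76 to 0.95) in tumor 3. Maoa was at 21.7, 48.7 and 39.7 CPM, a ratio of 0.46 (0.19 to 0.999) in tumor 1, 0.91 (0.71 to 1.17) in tumor 2 and 0.86 (0.71 to 1.04) in tumor 3. Pnmt, at 0, 15 and 8.25 CPM, had intervals of the ratio that included 1 in tumors 2 and 3.

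Slc18a1 and Slc6a2, nearly unseen in kept cells, were also low among the removed barcodes. Slc18a1 had 0, 54 and 27 UMIs, or 4.40 CPM in tumor 2 and 3.01 CPM in tumor 3, a ratio to kept cells of 6.07 (1.04 to 244) and 2.76 (0.96 to 10.8) that fell to 2.16 (0.34 to 90.1) and 0.75 (0.19 to 3.51) without cluster 9, a small group of removed barcodes. Slc6a2 had 0, 100 and 12 UMIs, or 8.15 and 1.34 CPM, a ratio of 5.62 (1.52 to 47.0) and 1.63 (0.44 to 9.02). The 0 in tumor 1 allows a level of up to 7.22 CPM for both genes.

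**Figure D2:**
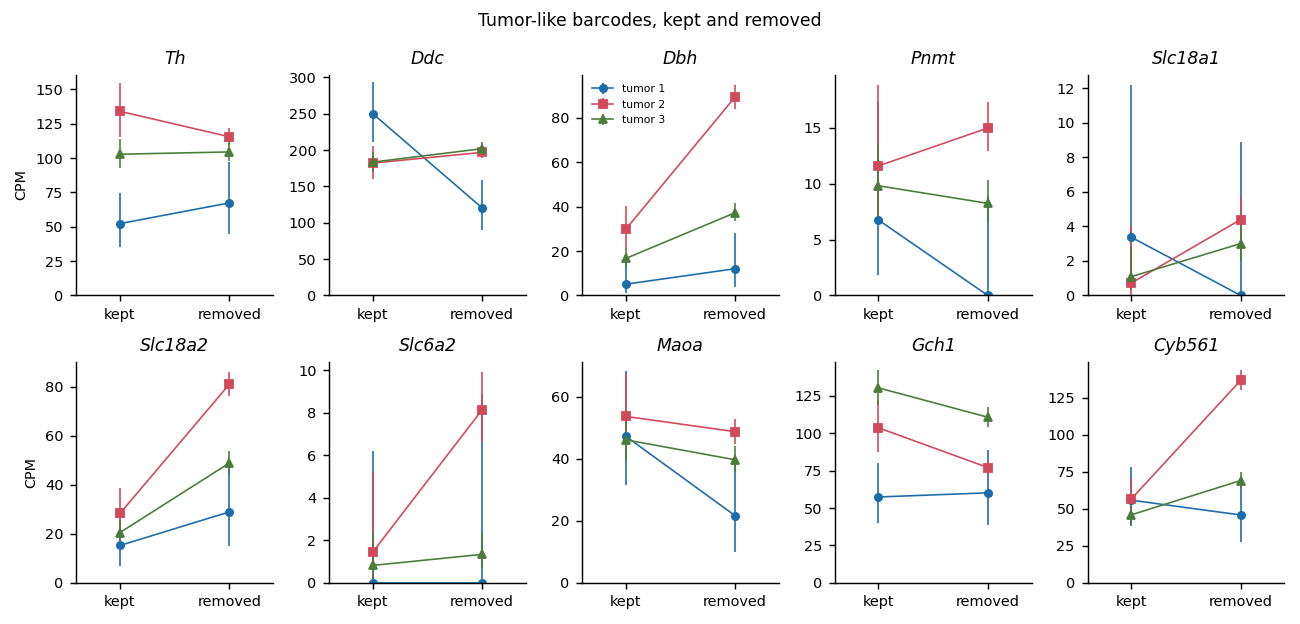
Levels of the 10 genes in CPM on linear axes, in kept and removed tumor-like barcodes of each tumor, with exact 95% Poisson intervals and a line joining the values of a tumor. The lines of Dbh and Slc18a2 rise in all 3 tumors, for Slc18a2 from 15.2, 28.3 and 20.5 to 28.9, 80.9 and 48.8 CPM, while those of Th stay nearly level in tumor 3. In tumor 1 the rise of Dbh and of Slc18a2 is within counting error.

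Over the 3 removed and 3 kept sums, 8 members were among the 10414 genes tested and 0 passed with no block, beside 0.0% of all genes. That edgeR fit had 2282 genes with an unadjusted p under 0.05, and DESeq2 called 400 genes and none of the members. With the tumor as a block, Dbh (log2 difference 1.20, SE 0.24, edgeR adjusted p = 0.0150) and Slc18a2 (1.17, SE 0.22, adjusted p = 0.0130) rose in removed barcodes, 2 of 8 members beside 13.3% of all genes higher and 20.2% called in either direction. Th (-0.13, adjusted p = 0.645), Ddc (-0.30, adjusted p = 0.327), Pnmt (-0.27, adjusted p = 0.662), Maoa (-0.46, adjusted p = 0.151), Gch1 (-0.38, adjusted p = 0.169) and Cyb561 (0.55, adjusted p = 0.152) did not pass. The median of the 8 members was -0.20, and that of all genes 0.03. Leaving out tumor 1 from the blocked fit gave 4 members, with Cyb561 higher (0.72, adjusted p = 0.0429) and Gch1 lower (-0.52, adjusted p = 0.0357) beside Dbh and Slc18a2, and leaving out tumor 2 or tumor 3 gave 0.

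Other markers moved with the removed set of tumor 1. Its tumor-like removed barcodes had a summed erythroid marker level of 31373 CPM against 6540 CPM in kept ones, and a tumor marker sum of 3796 against 5655 CPM, and the part of these in its values was not tested. Named instead by the nearest class, 6520 of the removed tumor-like barcodes of the 3 tumors stayed tumor-like, 255 became T cell-like and 40 erythroid-like. This was not split by tumor. Tumor 1 held 625 of the 627 removed barcodes in the T cell-like cluster. In tumors 2 and 3 the tumor marker sums were 8294 and 6771 CPM in removed and 5287 and 5606 CPM in kept tumor-like barcodes.

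Over all barcodes, with no classes, 0 of 8 tested members passed in the edgeR fit without the block, beside 0.0% of 13356 genes, of which 506 had an unadjusted p under 0.05 and DESeq2 called 46. With the block 0.015% of all genes passed and again no member.

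Genes of the fixed lists also differed between removed and kept tumor-like barcodes with the tumor as a block, and none did without it. Of 6 tested genes of other transport, 4 were higher in removed barcodes, beside 13.3% of all genes higher and 20.2% called in either direction. These were Slc3a2, the heavy chain of amino acid exchangers (log2 difference 1.35), Slc31a1 and Atp7a, which carry the copper that Dbh needs (0.95 and 1.92), and Slc23a2, which carries the ascorbate that Dbh uses (1.90). Atp7a was at 14.4, 13.3 and 12.6 CPM in removed and 3.38, 3.63 and 2.73 CPM in kept tumor-like barcodes. Slc23a2 was at 26.5, 17.0 and 13.9 CPM in removed and 6.75, 2.18 and 4.37 CPM in kept ones, and the ranges did not overlap for either gene. Kept tumor-like cells had 592238, 1379109 and 3665040 non-mitochondrial UMIs. The kept levels of both genes thus rest on few counts, and counting error is not shown for them. Of 7 tested genes of tetrahydrobiopterin metabolism, Qdpr, Pcbd1 and Pcbd2, which return the cofactor to its active form, were lower (-0.71, -0.78 and -0.85). Drd4, a dopamine receptor and 1 of 2 tested receptor genes, was higher (1.30), and none of 4 tested breakdown genes passed.

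Within tumor-like barcodes the levels of Dbh, Slc18a2 and Cyb561 also differed along the mitochondrial share, which was 20% or more in 84.7%, 93.7% and 93.6% of the removed and in none of the kept tumor-like barcodes. In tumor 2, Dbh was at 18.6 CPM in barcodes with under 5% mitochondrial UMIs, 55.4 at 5 to 20%, 89.8 at 20 to 30%, 92.7 at 30 to 40% and 95.7 at 40% and over. Slc18a2 followed with 18.6, 43.0, 55.4, 89.4 and 99.3 CPM and Cyb561 with 51.5, 77.2, 120, 148 and 148 CPM. Th was at 134, 146, 128, 110 and 102 CPM in these classes of tumor 2, and Ddc at 193, 205, 221, 195 and 172 CPM. In tumor 3 Th was at 100, 110, 108, 107 and 100 CPM, and Ddc at 188, 191, 230, 215 and 175 CPM. Tumor 1 had few UMIs per class, and its Cyb561 showed no steady rise, at 32.6, 120, 28.4, 14.5 and 69.1 CPM. In tumor 3 the levels of Dbh were 18.8, 18.8, 30.9, 49.4 and 30.1 CPM and those of Slc18a2 17.5, 24.4, 41.5, 57.1 and 52.8 CPM, so that both were highest at 30 to 40% and not beyond.

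Depth differed between the sets too, with a median of 593, 3412 and 2243 non-mitochondrial UMIs in removed and 979.5, 1507 and 1740 in kept tumor-like barcodes. Among barcodes with 1000 to 2000 UMIs, removed against kept, Dbh was at 43.5 against 29.2 CPM in tumor 2, a ratio of 1.49 (0.85 to 2.65), and at 28.4 against 14.8 CPM in tumor 3, a ratio of 1.91 (1.20 to 3.1). Slc18a2 at that depth had a ratio of 1.13 (0.63 to 2.02) in tumor 2 and 2.12 (1.44 to 3.15) in tumor 3. At matched depth the difference thus remained above 1 beyond counting error in tumor 3 and not in tumor 2.

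**Figure D3:**
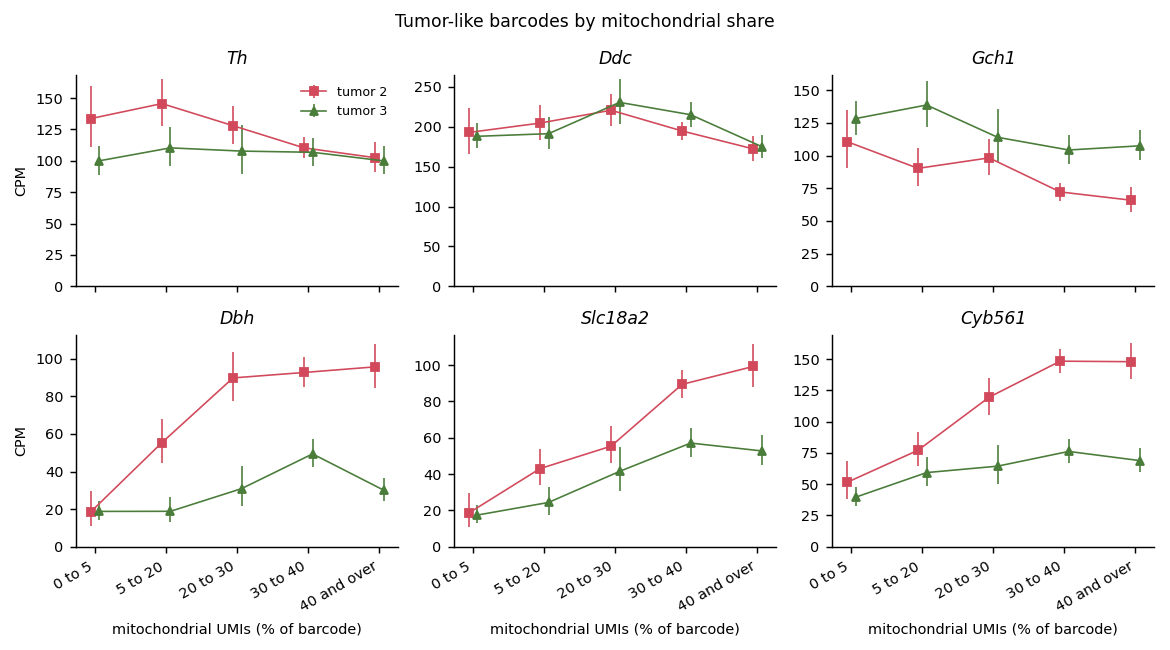
Level in CPM on linear axes of Th, Ddc, Gch1, Dbh, Slc18a2 and Cyb561 in tumor-like barcodes of tumors 2 and 3, in 5 classes of mitochondrial share, with exact 95% Poisson intervals. Dbh of tumor 2 climbs from 18.6 to 95.7 CPM and Slc18a2 from 18.6 to 99.3 CPM, while Th goes from 134 to 102 CPM.

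Kept tumor-like cells fell into 5 groups of similar cells. Across them 0 of 8 tested members passed the edgeR F test, beside 1.91% of 8217 genes, with 885 genes at an unadjusted p under 0.05 and 122 genes but no member called by DESeq2. With the tumor as a block Slc18a2 passed (adjusted p = 0.00203), beside 10.3% of all genes. It was at 37.9, 44.8 and 59.4 CPM in a group of 338 cells led by Pde10a and Meg3. The other sums of 10 or more cells lay between 0 and 27.1 CPM, except 57.9 CPM from 1 UMI in 16 cells of tumor 1. That group had a median mitochondrial share of 8.05%, and the other kept tumor-like groups 1.49% to 2.37%.

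Among the removed tumor-like barcodes 1 group, cluster 9, stood apart and was singled out after its values were seen, so its levels are a description. It held 328 barcodes, 7 in tumor 1, 171 in tumor 2 and 150 in tumor 3, or 1.91%, 5.58% and 4.39% of the removed tumor-like barcodes. Its leading genes were Npy, Vgf, Resp18, Chga and Ptprn, genes of neuropeptides and dense core vesicles, and Dbh was also among its 10 leading genes. Tumor 1 is too thin here, with 8618 non-mitochondrial UMIs, and values are given for tumors 2 and 3.

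Th was at 475 and 343 CPM in cluster 9 and at 90.8 and 92.0 CPM in the other removed tumor-like barcodes, a ratio of 5.23 (4.63 to 5.89) in tumor 2 and 3.73 (3.11 to 4.43) in tumor 3. Dbh was at 374 and 220 CPM against 69.8 and 27.6 CPM, a ratio of 5.35 (4.67 to 6.13) and 7.99 (6.25 to 10.2). Ddc stayed at 190 and 214 CPM against 197 and 201 CPM, so that the steps before and after it differed while it did not beyond counting error.

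Of the 10 genes, Slc18a1 had the largest ratio in both tumors. It was at 45.6 and 44.5 CPM against 1.57 and 0.82 CPM, a ratio of 29.1 (16.1 to 54.4) and 54.2 (22.0 to 152), so that a transporter hardly counted elsewhere was present here in both tumors. Slc18a2 was at 309 and 267 CPM against 65.2 and 37.3 CPM, a ratio of 4.74 and 7.16. Pnmt was at 35.5 and 22.2 CPM against 13.6 and 7.51 CPM and Cyb561 at 229 and 151 CPM against 130 and 64.6 CPM. Slc6a2 was higher in tumor 2 (24.1 against 7.06 CPM) and had 2.22 against 1.29 CPM in tumor 3, from a ratio whose interval ran from 0.04 to 11.9. Gch1 (114 and 113 CPM) and Maoa (70.9 and 42.3 CPM) were above the other removed tumor-like barcodes in tumor 2 and not beyond counting error in tumor 3.

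Npy, a peptide stored with noradrenaline, was at 3448 and 714 CPM in cluster 9 against 42.2 and 30.4 CPM. The tumor marker sum was 12764 and 10424 CPM against 7986 and 6578 CPM. Markers of the adrenal cortex summed to 380 CPM in tumor 3 against 13 CPM in its other removed tumor-like barcodes and to 5 CPM in tumor 2, and their part in the result was not tested. Its median mitochondrial share was 35.0% and 38.9%, near the 35.1% and 37.9% of the rest.

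**Figure D4:**
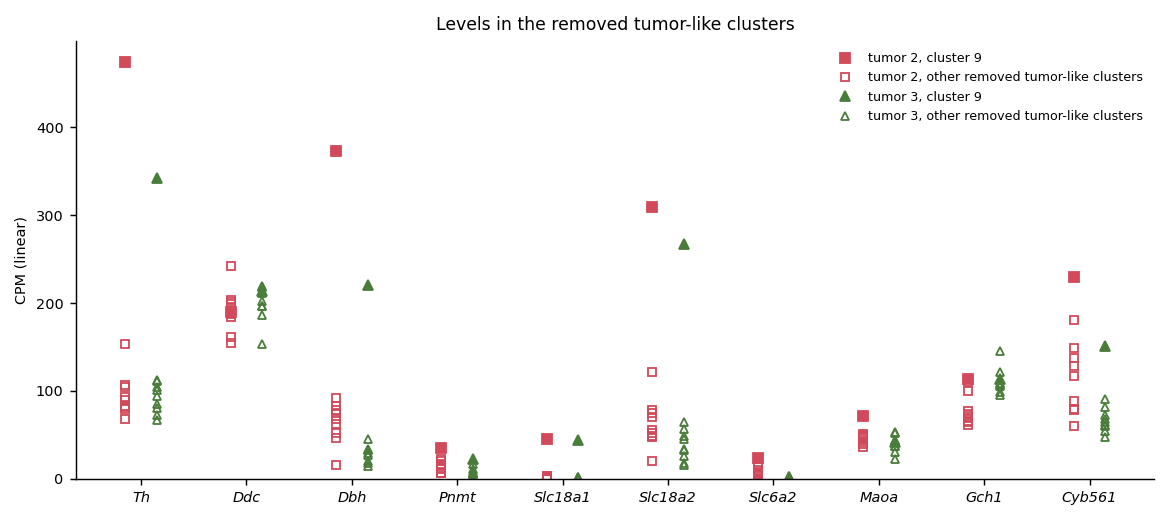
Level of the 10 genes in CPM on a linear axis in the removed tumor-like clusters with 10 or more barcodes in tumors 2 and 3, with cluster 9 as filled and the other clusters as open symbols. Cluster 9 lies at 475 and 343 CPM for Th, 374 and 220 for Dbh and 309 and 267 for Slc18a2, while for Ddc it lies among the other clusters.

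A test across the removed tumor-like clusters was added after these values were seen. Dbh (edgeR F test, adjusted p = 0.0336), Slc18a1 (adjusted p = 0.00942) and Slc18a2 (adjusted p = 0.00472) passed and Th did not (adjusted p = 0.124), 3 of 9 tested members beside 0.528% of 10416 genes. With the tumor as a block 7 of 9 members passed, beside 44.5% of all genes, and Ddc and Maoa were the exceptions. Leaving out a tumor was tried without the block only. The calls did not hold without tumor 2 or without tumor 3, and cluster 9 has sums of 10 or more barcodes in these tumors only. Without tumor 1 some members passed.

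Leaving cluster 9 out of the removed tumor-like barcodes, also decided after the values were seen, lowered the difference from kept cells without ending its direction. Dbh was then 2.35 times (1.71 to 3.30) and 1.66 times (1.25 to 2.23) as high in removed as in kept barcodes of tumors 2 and 3, and Slc18a2 2.31 times (1.67 to 3.27) and 1.82 times (1.41 to 2.38). In tumor 1 Slc18a2 was then at 17.2 CPM from 7 UMIs, a ratio of 1.13 (0.36 to 3.42), inside the range of kept cells. In the blocked fit the log2 difference of Dbh was 0.84 (adjusted p = 0.0476) and that of Slc18a2 0.78 (adjusted p = 0.0505), so that Slc18a2 no longer passed. Th without the cluster was lower in removed than in kept barcodes of tumor 2, at a ratio of 0.68 (0.58 to 0.80), and had a ratio of 0.89 (0.79 to 1.01) in tumor 3.

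Pairs of members were counted in the same barcode after thinning removed tumor-like barcodes to 1000 UMIs. In tumor 2, Slc18a2 was seen in 14.6% of the 212 barcodes with a Dbh UMI and in 6.10% of the rest, and in tumor 3 in 10.3% of 97 and 4.29% of the rest. Dbh was seen in 11.4% and 5.19% of barcodes with a Th UMI and in 6.54% and 2.65% of the rest. Ddc was seen in 17.3% and 17.9% of barcodes with a Th UMI and in 16.4% and 18.1% of the rest, shares that lie close together in both tumors. Kept tumor-like cells were thinned in the same way. In tumor 2, Slc18a2 was seen in 0 of 23 cells with a Dbh UMI and in 2.57% of the rest. In tumor 3 it was in 6.25% of 32 and 1.77% of the rest. Dbh was in 4.76% and 1.05% of kept cells with a Th UMI, and in 2.97% and 1.65% of the rest. These kept shares rest on few cells. The removed barcodes include the group led by Npy and Vgf, which was high in Th, Dbh and Slc18a2. The part of that group in the shares was not tested.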

How the data were processed

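Dissociated TH-MYCN tumors from 3 mice were profiled with the 10x Genomics Chromium 3′ v3.1 kit, and per the submitters' notes reads were processed with Cell Ranger 3.1.0 against mm10 and analysed with Seurat 3.1.5. The raw tables that the authors deposited hold UMI counts per gene and barcode. The normalized tables the authors deposited hold the natural log of 1 plus a count corrected for ambient RNA, after removal of doublets and low-quality barcodes, and every value returned to a whole number within 1e-06. They were used to mark kept barcodes and for 1 alternative. No doublet caller was run on removed barcodes.

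Raw counts of kept and of removed barcodes were clustered separately with Seurat 5.3.0 (2000 variable genes without the 10 members, the pathway lists and the 13 mitochondrial genes, canonical correlation integration, 30 dimensions, 20 neighbours, resolution 1), and clusters were named from fixed markers. Counts were summed per tumor and class, with at least 10 cells and without mitochondrial genes, and tested with edgeR 4.0.16 (TMM scaling, filterByExpr, quasi-likelihood, Benjamini-Hochberg at 0.05) in R 4.3.3. Levels used Python 3.11.15, numpy 2.4.6 and scipy 1.17.1. Intervals of a ratio are conditional binomial, and limits at 0 use 3 counts. The unblocked fits of tumor-like cells against other classes and of removed against kept tumor-like barcodes were also run on simulated counts. These had no effect shared by the sums of 1 tumor, so they do not bear on the blocked fits.

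Sums of 1 tumor come from 1 mouse. Deviations of kept and removed tumor-like sums correlated at 0.40 to 0.51 within the 3 tumors and at -0.43 to 0.04 between tumors, and those of tumor-like and macrophage-like sums at 0.27 to 0.30 within them. Values with the tumor as a block are therefore given beside those without. Without the block, p-values rest on the spread between tumors within a class, cluster or set, and sums of 1 mouse count as independent. With the block, they rest on the spread left after the shared shift of each tumor is taken out. In both fits the spread is estimated over all sums together, and only 3 mice stand behind it.

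All 10 members are named, list genes are named where they passed, and for members called higher in tumor-like cells the 3 genes of highest Pearson correlation are named. A few genes that these rules would name are not reported here. Since no member was called without the block, this was applied to the blocked calls, a choice made after seeing the data. The members and lists were chosen with earlier results of these data known. Alternatives were DESeq2 1.42.0, no filter on low counts, the block, each tumor left out, mitochondrial genes in totals, at least 20 cells, the authors' corrected counts, resolutions 0.5 and 2, no integration, naming of removed barcodes by the nearest class, and thinning to 1000 UMIs.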

Additional observations from a re-analysis of the deposited data

How the results depend on the processing

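With 3 tumors and sparse counts, the tests across classes were sensitive to scaling and to single tumors, and 5 of the 10 members did not pass the low-count filter of that fit. In tumor-like cells against the other classes, 0 members and 56 genes passed without the block. This became 3 members and 1089 genes with the block, 5 and 1790 with at least 20 cells, 3 and 1158 with the authors' corrected counts, 5 and 2096 with mitochondrial genes in totals, 9 and 3824 with no filter, 7 and 4583 with no integration, 3 and 1621 at resolution 0.5, 2 and 377 at resolution 2, and 1669 genes but 0 members by DESeq2. Leaving out tumor 1, 2 or 3 gave 1, 4 or 2 members and 289, 956 or 364 genes, and with the block 3, 6 or 5 members and 1009, 2780 or 1466 genes. For removed against kept tumor-like barcodes, 0 genes became 2102 with the block (2 members), 498 with nearest-class naming (1 member), 400 by DESeq2 and 16 with mitochondrial genes in totals, and leaving out a tumor or cluster 9 gave 0 of both without the block. With the block, leaving out tumor 1, 2 or 3 gave 4, 0 or 0 members and 3226, 881 or 203 genes, and leaving out cluster 9 gave 1 member and 1935 genes. Over all barcodes 0 genes became 46 by DESeq2, 2 with the block and 0 to 560 without a tumor. Across kept tumor-like clusters 157 genes became 429 with no filter and 849 with the block (1 member), and 13 to 171 without a tumor. Across removed ones 55 became 140 by DESeq2 and 4635 with the block (7 members), and 0 to 1860 (0 to 4 members) without a tumor. In the other classes 1 member passed, and 2 with at least 20 cells, 0 with corrected counts, 7 with no filter, 4 with no integration, 3 with the block and 0 to 4 without a tumor, while the 1567 genes called in neutrophil-like cells became 630 to 1268 without a tumor and 663 to 1817 with the block as well. Cells with any of the 10 genes rose from 16.8%, 26.7% and 23.2% to 38.0%, 44.8% and 41.7% when thinned to 1000 UMIs and to 38.6%, 63.3% and 60.1% with no thinning. The cause of these changes was not tested.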
